A study of Mus musculus with 8 samples.

Results

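The 733 regions described here are the Brg1 peaks that lay far from genes in A-MuLV-transformed pro-B cells after dTAG-13, that is, peaks whose summit fell outside every protein-coding gene and more than 50 kb from the nearest protein-coding gene bound of GRCm38.p6. They were taken from the 5197 Brg1 peaks of that library on the numbered chromosomes and X, out of 5206 peaks in all, and make up 14.1% of them (95% interval 13.2 to 15.1%). Of the 733, 109 lay in antigen receptor loci and are counted apart, which leaves 624 elsewhere. The position of a summit was the measure that chose them, so their distance from genes is not a result.

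Chromatin immunoprecipitation with sequencing (ChIP-seq) was done in 8 samples, 4 immunoprecipitations and 4 inputs, of pro-B cells transformed with the Abelson virus, in which modified EBF1 genes introduced from outside replaced the cells' own EBF1. Brg1 was precipitated from the line EBF1-dTAG_N after 6 h with 0.5 µM dTAG-13, the library studied here, and after DMSO, which the treatment label gives as 6 h and the title as 0 h. EBF1 was precipitated from another line, EBF1-dTAG_C, under the same treatments. Fixation in 1% formaldehyde lasted 10 min for EBF1 and 15 min for Brg1, and 4 and 0.5 µg of antibody were used. Each group is 1 library and the peaks of a library are not replicates of a condition, so no test was made and nothing said of conditions has a replicate check. The 95% intervals are exact Clopper-Pearson intervals over peaks and cover counting error only. The cells' identity was not checked against expression, which was not measured in the data used here. Whether a line is 1 clone is not given in the sources used here.

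Brg1, encoded by Smarca4, is an ATPase of the BAF (SWI/SNF) complexes, which slide and evict nucleosomes and are known to act at enhancers as well as at promoters. Enhancers can lie a very long way from the gene they act on, often in stretches without protein-coding genes, and such stretches beside developmental and haematopoietic regulators are known to hold clusters of them. Which gene a distant element acts on cannot be read from its position, and the genes named below are the neighbours of a peak, with nothing implied about its target. EBF1 is a DNA-binding factor without which B cells do not develop. The dTAG is a degron through which dTAG-13 directs the tagged protein to degradation.

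A part of the far peaks met the starts of long noncoding RNA (lncRNA) genes, and these are the places where sequence could be read here, from RefSeq promoter windows of GRCm38.p6 that run from 250 bases before to 50 bases after a gene's start. Of the 600 far peaks outside receptor loci on chromosomes with such windows, 12 overlapped a window (2%, 95% interval 1.04 to 3.47%). Among 1716 intergenic Brg1 peaks of the same list within 50 kb of a protein-coding gene, 41 did (2.39%, 1.72 to 3.23%), so the intervals overlap. In 4 of the 12 the summit itself lay in the window, and these windows are printed 5′ to 3′ on the gene's strand because they are the sequence directly under a far summit. Capitals mark the matches to the motifs searched: the EBF1 palindrome, ETS (GGAAGT), E-box (CAGCTG), RUNX (TGTGGTTT), AP-1 (TGANTCA), Ikaros (TGGGAA) and the CTCF core (CCCTC), each on both strands. No match in these 4 windows overlapped another.
Mirt1 (chr19:53464747-53465046, minus strand): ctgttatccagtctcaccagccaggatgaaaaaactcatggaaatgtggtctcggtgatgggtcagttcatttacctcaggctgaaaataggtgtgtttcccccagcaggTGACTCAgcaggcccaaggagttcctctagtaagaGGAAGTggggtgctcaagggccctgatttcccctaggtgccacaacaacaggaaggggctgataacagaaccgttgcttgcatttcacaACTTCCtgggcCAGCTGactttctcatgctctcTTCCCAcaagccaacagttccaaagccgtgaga
Gm46770 (chr2:148562092-148562391, minus strand): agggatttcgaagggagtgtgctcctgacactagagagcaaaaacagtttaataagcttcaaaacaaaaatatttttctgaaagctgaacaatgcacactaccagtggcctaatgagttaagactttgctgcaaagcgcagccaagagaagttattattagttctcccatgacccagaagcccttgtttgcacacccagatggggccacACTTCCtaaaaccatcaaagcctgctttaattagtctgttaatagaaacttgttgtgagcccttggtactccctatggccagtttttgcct
Gm32196 (chr16:25178080-25178379, minus strand): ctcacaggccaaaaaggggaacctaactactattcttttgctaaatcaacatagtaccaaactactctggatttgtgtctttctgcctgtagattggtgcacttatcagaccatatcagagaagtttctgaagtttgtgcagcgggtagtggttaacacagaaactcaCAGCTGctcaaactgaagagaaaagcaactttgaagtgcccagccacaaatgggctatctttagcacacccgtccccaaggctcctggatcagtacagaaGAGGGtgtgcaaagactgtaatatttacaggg
Gm33104 (chr10:19494393-19494692, plus strand): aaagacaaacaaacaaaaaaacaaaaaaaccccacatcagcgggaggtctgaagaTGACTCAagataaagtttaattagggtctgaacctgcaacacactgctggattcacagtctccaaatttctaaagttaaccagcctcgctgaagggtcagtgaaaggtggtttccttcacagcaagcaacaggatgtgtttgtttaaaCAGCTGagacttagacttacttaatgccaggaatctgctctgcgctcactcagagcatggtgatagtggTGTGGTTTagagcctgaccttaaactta

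The Mirt1 window held an AP-1 match (TGACTCA at base 111 of the window), ETS matches at bases 146 and 235, an E-box at 246 and an Ikaros match at 268. Its peak had 28 fragments at the summit and lay between Smndc1, a splicing factor, and Dusp5, a phosphatase that acts on ERK kinases. The Gm33104 window, between Olig3 and Ifngr1 (a chain of the interferon-gamma receptor), held an AP-1 match at base 56, an E-box at 204 and a RUNX match at 273, under a summit of 19 fragments. Gm46770, between Cd93 and Nxt1, held an ETS match at base 210 (20 fragments), and Gm32196, between Lpp and Tprg, an E-box at 169 and a CTCF core at 269 (22 fragments). Over all 12 windows, AP-1 letters stood in 4 (33.3%, against 9.31% of the 11574 lncRNA windows in the table), E-box letters in 5 (41.7% against 17.6%) and ETS letters in 4 (33.3% against 21.9%). Ikaros letters stood in 4 (33.3% against 27.5%), the CTCF core in 5 (41.7% against 59.3%), RUNX letters in 1 (8.33% against 2.11%) and EBF1 letters in 0 (against 0.804%). These are matches of letters and not sites, and with 12 windows the shares rest on few matches. The comparison is with all lncRNA windows, with or without a Brg1 peak, and windows under other Brg1 peaks were not compared.

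MicroRNA genes lay within 50 kb of 10 far peaks outside receptor loci. These were 10 microRNA genes, of which 9 had a mature sequence in the RefSeq table. The ones with a known role in lymphocytes are printed with the seed, bases 2 to 8, in capitals, because they are the short noncoding genes nearest to the far peaks beside Ptprc and to a far peak shared with DMSO.
miR-181a-5p: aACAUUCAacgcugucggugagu
miR-181b-5p: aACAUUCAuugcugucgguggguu
miR-146a-5p: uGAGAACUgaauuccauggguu

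miR-181a-5p and miR-181b-5p, which are abundant in lymphoid progenitors, share the seed ACAUUCA, whereas miR-146a-5p, known as a brake on NF-kappaB signalling, has GAGAACU. Mir181a-1 and Mir181b-1 lie on chromosome 1 (137966455 to 137966541 for the former), and the nearest far peaks had their summits 42.8 and 43.5 kb from Mir181a-1, with 17 and 25 fragments. Both summits, and that of a further peak of 22 fragments, lay inside the lncRNA gene Gm4258, between Nr5a2 and Ptprc. Mir146 lies on chromosome 11, and the far peak 15.6 kb from it (43358682 to 43359249, 19 fragments) was also a Brg1 peak in DMSO. The other microRNA genes near a far peak included Mir7214, Mir7216, Mir7217 and Mir7218, all beside 1 peak between Lemd2 and Grm4, Gm51286 (miR-12204) and Mir101c. The peak beside Mir101c stood in a stretch of very high local background at the start of chromosome 9.

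The median far peak was about as tall as that of other Brg1 peaks of the same library. Far peaks outside receptor loci took a larger share of the highest ranks than of the list. A fragment count at the summit is the number of overlapping fragments there, recovered from the authors' fold enrichment and p, and fold enrichment is the ratio of that pileup to the local background. The median far peak outside receptor loci had 18 fragments (quartiles 16 and 21), a fold enrichment of 4.47 and a width of 340 bp. Peaks inside protein-coding genes had a median of 17 fragments (quartiles 15 and 20), a fold enrichment of 4.4 and a width of 312 bp, and intergenic peaks within 50 kb of a gene had 18 fragments, 4.51 and 332 bp. The quartiles of the classes overlap throughout. Of the 237 peaks with the highest −log10 q, ranks 1 to 234 with ties, 41 were far peaks outside receptor loci (17.3%, 95% interval 12.7 to 22.7%), against 12% of the list. All far peaks, receptor loci included, made up 44 of the 237 (18.6%, 13.8 to 24.1%), an interval that takes in their 14.1% of the list. Peaks inside genes made up 108 of the 237 (45.6%, 39.1 to 52.1%), against 52.1% of the list. High local background, over 5 times the lowest of the library, was found at 3 of the 624, which lay at the starts of chromosomes 9 and 18 and at the end of chromosome 1. They had 352, 248 and 102 fragments at fold enrichments of 1.24, 1.95 and 2.55. The peak of 248 fragments, at rank 95, is among the 41.

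The far peaks with the highest −log10 q lay beside genes of several kinds, and a few B-lineage genes flanked their gaps. The highest, at chromosome 14, 102907052 to 102908114, had 45 fragments (fold enrichment 13.5) and lay 69 kb from Kctd12. The next, at chromosome 3, 100318303 to 100319023, had 43 fragments and lay 112 kb from Gdap2 and 149 kb from Tent5c, a poly(A) polymerase. A peak of 36 fragments lay between Kcna4 (a potassium channel) and Mettl15, 779 kb from the latter. All these summits stood above the upper quartile of the far peaks, 21 fragments. The fourth lay 834 kb from Myc, the proto-oncogene that drives cell growth, at chromosome 15, 62823803 to 62825000, with 35 fragments. The seventh lay 218 kb from Foxo1, a forkhead factor that early B cells need for expression of Il7r and the Rag genes, at chromosome 3, 52567864 to 52568387, with 37 fragments. A peak of 29 fragments lay 726 kb from Ets1, a factor of lymphocyte development (chromosome 9, 33482868 to 33483767), and a peak of 41 fragments lay 55.4 kb from Qrsl1 and 234 kb from Cd24a, the heat-stable antigen on early B cells. The remaining peaks of the first 15 lay beside Gja1 (33 fragments), Pcdh9 (36 and 33), Kcns2 (34), Pcsk1 (40), Adgrl2 (31), Prdm13 (29) and the predicted gene Gm46911 (34), all by nearest bound.

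The gene-free stretches open to far peaks outnumbered these peaks by a wide margin, so most stretches had to stay empty. Stretches between neighbouring protein-coding genes, here called gaps, had room for a far peak in 2748 cases, and 232 of these (8.44%) held at least 1 of the 624. This room, the sequence more than 50 kb from any protein-coding gene, amounted to 912 Mb, or 35.5% of the annotated extent of the chromosomes, and held 14.1% of the list. Outside receptor loci there were 0.687 far peaks per Mb of room, against 2.69 other peaks per Mb of the rest. Of the gaps with a far peak, 117 held 1, 39 held 2 and 76 held 3 or more. Those 76 gaps took in 426 of the 624 peaks (68.3%) and 6.5% of the room. They were picked by the number of peaks they hold, so a share of peaks above the share of room is partly built in. Distances to the nearest gene ran from just over 50 kb to 1866 kb, with a median of 114 kb. A distance of 50 to 100 kb was found for 265 peaks (42.5%), 100 to 250 kb for 211 (33.8%), 250 to 500 kb for 82 (13.1%), 500 to 1000 kb for 49 (7.85%) and over 1000 kb for 17 (2.72%). The 5 farthest lay between Celf4 and Pik3c3 (1866 and 1490 kb), between D3Ertd751e and Pcdh10 (1641 and 1555 kb) and beside Pcdh17 (1525 kb). Of these, the peak at chromosome 3, 43358151 to 43358950, had 36 fragments and the others 15 to 18. At the limit of the rule, the nearest members were 50014, 50259 and 50401 bp from Gm4846, Nfatc1 and Serpinb6d (28, 18 and 22 fragments). The peaks just outside it were 49861, 49700 and 49230 bp from Map3k1, Hpgd and Katnal1 (19, 18 and 23 fragments).

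Chromosomes differed in the density of far peaks. Chromosome 2 had 58, or 1.12 per Mb of room, followed by chromosomes 9 (1.09), 10 (1.05) and 12 (1.02). Chromosome 11 had 4 (0.124 per Mb), although its whole list was dense, with 3.15 Brg1 peaks per Mb of chromosome. Chromosome X had 2 in 75.3 Mb of room (0.0266 per Mb), and its whole list was sparse as well, with 28 peaks or 0.167 per Mb. The plot of density by chromosome shows chromosomes 11 and X below the rest.

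**Figure D1:**
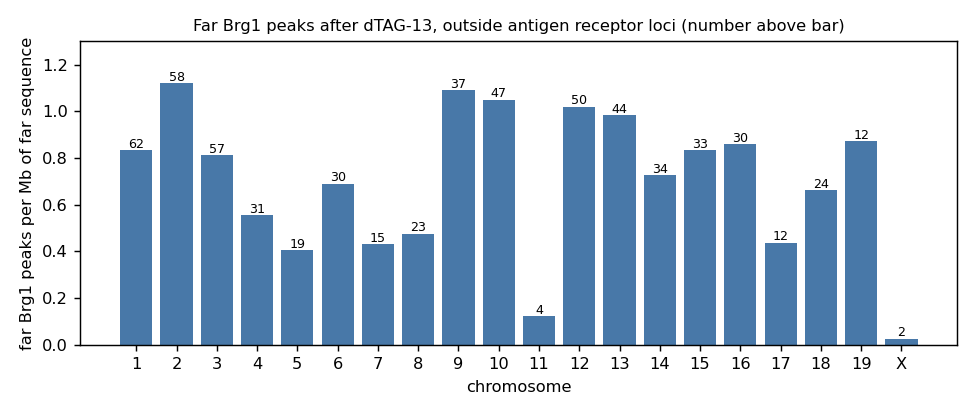
Bars give the number of far Brg1 peaks after dTAG-13 per Mb of sequence more than 50 kb from a protein-coding gene, by chromosome, without antigen receptor loci, and the number above each bar is the number of peaks. Chromosome 2 stands at 1.12 per Mb, chromosome 11 at 0.124 and chromosome X at 0.0266.

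Many far peaks stood in groups within the gaps, and neighbours within 10 kb were about as common among the other Brg1 peaks. Joining summits that followed each other within 50 kb gave 66 clusters of 3 or more, which held 295 of the 624 peaks (47.3%, 95% interval 43.3 to 51.3%), beside 64 pairs and 201 lone peaks. With a neighbour defined as any Brg1 peak of the list within 10 kb, 312 of the 624 far peaks had one (50%, 46 to 54%). Of the 4464 other peaks 2071 did (46.4%, 44.9 to 47.9%), and the intervals overlap. A share in clusters of 3 or more is not given here for the other peaks. The share in clusters was 38.7% of all 733 when summits had to lie within 25 kb and 27.2% with peaks of a −log10 q of at least 5, against 51% of all 733 under the main rule. Peaks of 1 cluster can be parts of 1 element or of neighbouring elements, which the lists do not tell apart.

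The gap with the most far peaks was that between Foxo1 and Cog6, a subunit of a Golgi tethering complex, on chromosome 3. It held 14 in 532 kb of room, or 26.3 per Mb, and 10 of them formed the largest cluster, 50.9 to 118 kb from Foxo1. Their fragments at the summit were, in order away from Foxo1, 21, 18, 29, 15, 16, 23, 15, 13, 14 and 25. The peak of 29 fragments, at 52443837 to 52444844, overlapped a Brg1 peak in DMSO and an EBF1 peak in DMSO, and the peak of 25 fragments, at 52467928 to 52468591, a Brg1 peak in DMSO. A second group of 4, with 37, 17, 22 and 18 fragments, stood 218 to 223 kb from Foxo1. The rest of the gap up to Cog6 held no far peak.

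The gap between Myc and Gsdmc, a gasdermin, held 12 far peaks in 1686 kb of room (7.12 per Mb). The one nearest to Myc, at 179 kb, lay inside Pvt1, a lncRNA gene beside Myc, and had 18 fragments. Those at 791 and 834 kb had 14 and 35 fragments, and those at 1381 and 1421 kb had 26 and 19. The other 7 formed a cluster 1621 to 1689 kb from Myc and had 19, 16, 20, 17, 17, 17 and 15 fragments. An enhancer cluster for Myc in blood cells is known from this end of the gene desert. In that cluster the peak at chromosome 15, 63657674 to 63658822, overlapped an EBF1 peak of the DMSO list, with summits 399 bp apart.

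The other 4 of the 5 largest clusters held 7 or 8 far peaks each, and clusters of 7 also lay between Tmco5 and Spred1, between Cyria and Mycn and, as given above, between Myc and Gsdmc. The gap between Cetn3 and Mef2c, a MADS-box factor of B-lymphoid development, held 10 far peaks, of which 8 formed a cluster 391 to 483 kb from Mef2c with 19, 16, 24, 12, 21, 18, 22 and 18 fragments. The gap between Irf2bp2, a transcriptional corepressor, and Tomm20 held 9, of which 8 formed a cluster 63 to 98.6 kb from Tomm20, 238 to 274 kb from Irf2bp2, and lay within 35.6 kb of each other, with 14 to 23 fragments. All 8 summits of that cluster fell inside the lncRNA gene Gm31718. Between Il3ra, the alpha chain of the interleukin-3 receptor, and Slc4a7 there were 9, of which 8 formed a cluster with 15 to 30 fragments. Between Cd24a and Qrsl1 there were 8, and 7 of them formed a cluster 162 to 234 kb from Cd24a, and nearer to Qrsl1, with 21, 20, 18, 17, 17, 27 and 41 fragments. In the plot of the gaps these groups appear as bunches of stems, which lie towards 1 end of the gap in the panels of Foxo1, Myc, Mef2c and Irf2bp2.

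**Figure D2:**
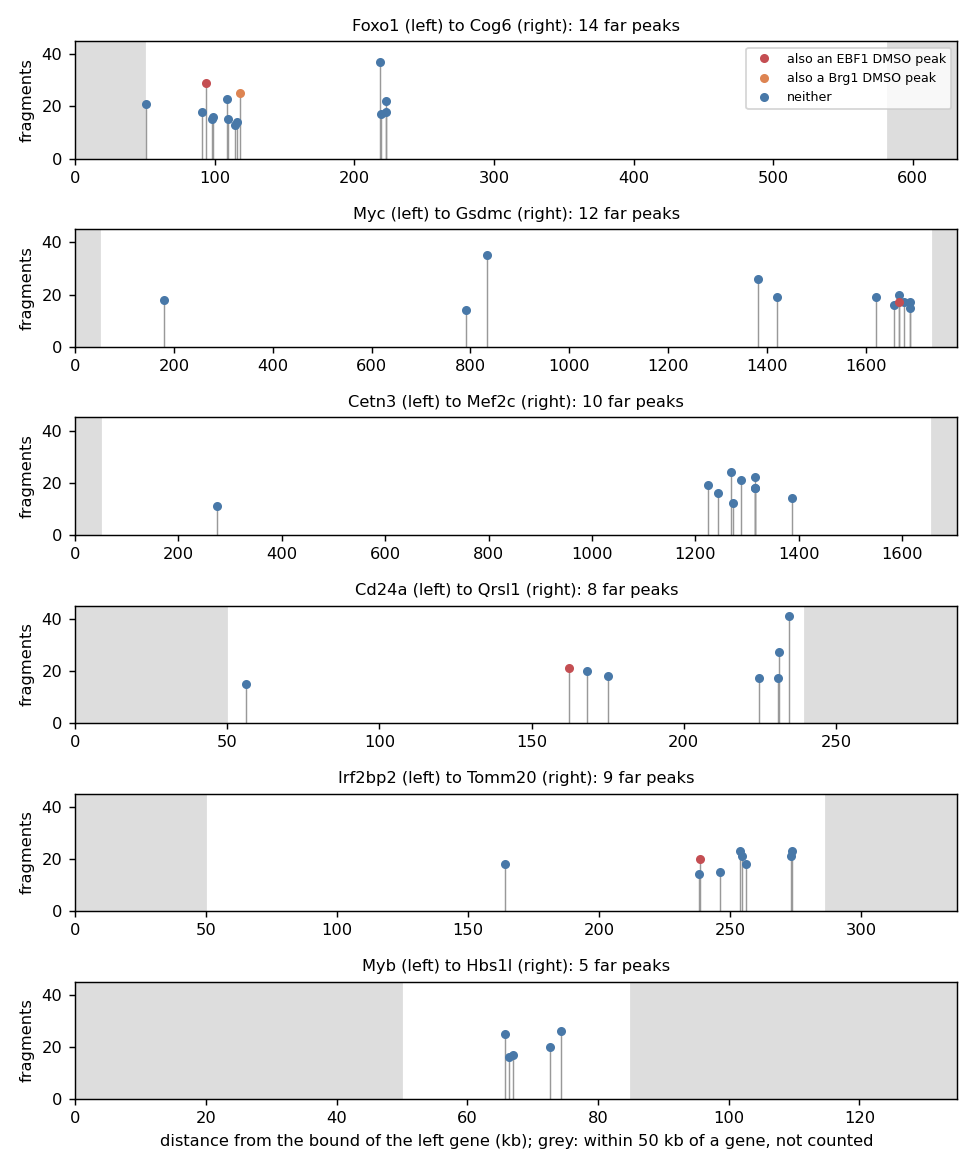
Each panel is a gap between named protein-coding genes, the x axis is the distance in kb from the bound of the left gene, and each stem is a far Brg1 peak after dTAG-13 with its fragments at the summit as height. Grey bands lie within 50 kb of a gene and were not open to far peaks, red marks peaks that overlap an EBF1 peak in DMSO, orange marks overlap with a Brg1 peak in DMSO alone, and the 14 peaks beside Foxo1 stand in groups of 10 and 4.

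Long gaps with many far peaks spread over a wide stretch had lower densities. Such gaps were those between Nmbr and Cited2, a coactivator-binding factor (13 peaks, 4.56 per Mb), Kcnt2 and Cdc73, a subunit of the Paf1 complex (13, 4.5 per Mb), Kcna4 and Mettl15 (12, 7.21 per Mb) and Cntn5, a neuronal adhesion gene, and Jrkl (11, 4.92 per Mb). The gap between Npvf and the predicted gene Gm38821 held 12 at 25.6 per Mb. Among gaps with at least 3 far peaks, the densest had little room. Csf1, the gene for macrophage colony-stimulating factor, and Eps8l3 enclosed 4 peaks in 13.4 kb of room, with 23, 17, 24 and 20 fragments. Hdhd5 and Cecr2, a bromodomain protein of remodelling complexes, enclosed 6 in 35 kb, with 27, 13, 14, 18, 12 and 14 fragments. Myb, a factor required for early lymphoid development, and Hbs1l enclosed 5 in 35 kb, 65.8 to 74.4 kb from Myb, with 25, 16, 17, 20 and 26 fragments. This stretch between Myb and Hbs1l is known for Myb enhancers in blood cells. The gaps from Gm4846 to Gm4847 and from Atp13a3 to Tmem44 followed with 3 peaks each and 131 per Mb. With room as small as 13.4 kb, a density rests on where the 50 kb limit falls.

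Genes of the B lineage stood beside far peaks in larger shares than protein-coding genes as a whole, and so did every other list, described below. Of all 21519 protein-coding genes, 452 flanked a gap with a far peak outside receptor loci, a background of 2.1%, and of the 4472 genes beside a gap with room 10.1% did. Of the 27 B-lineage factors, 17 were beside room and 8 flanked a far peak (29.6% of the 27 and 47.1% of the 17). These were Mef2c (10 peaks), Id2, an inhibitor of E proteins (7), Runx1, a core haematopoietic factor (7), Zeb2 (6), Myb (5), Bcl6, a repressor of germinal-centre and pre-B cells (4), Satb1, a chromatin organizer (3), and Ets1 (2). The peaks beside Zeb2 were 162 to 3296 kb from it, and 5 of the 6 lay closer to Acvr2a at the other end of the gap. Of the 3 beside Satb1, 1 lay 59.3 kb from Tbc1d5 and 496 kb from Satb1. The peaks beside Runx1 had 26, 19, 19, 16, 16, 21 and 13 fragments at 203 to 467 kb. Of the 7 beside Id2, 5 lay 93 to 121 kb from it inside the lncRNA gene Gm36287, with 25, 21, 16, 18 and 17 fragments.

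Early B-lineage genes had 3 of 25 members beside a far peak, Foxo1 (14), Cd24a (8) and Cr2 (1), with 5 members beside room. The peak beside Cr2 was the high-background peak at the end of chromosome 1. That peak lay beyond the last protein-coding gene and so in no gap, and 2 of 25 are left without it. Pre-B cell receptor signalling had 4 of 25, with 8 beside room: Ptprc (5 peaks), which encodes the phosphatase CD45, Rasgrp1 (2), Nfatc1 (1) and the kinase gene Fyn (1). The 5 beside Ptprc had 21, 16, 22, 25 and 17 fragments, 139 to 257 kb from the gene. Proliferation and survival had 4 of 28, with 10 beside room: Myc (12), Mycn (8), Ccnd2, a cyclin of G1 phase (2), and Bcl2l11, which encodes the death factor Bim (1). The 8 beside Mycn had 13, 27, 22, 18, 17, 18, 25 and 18 fragments and lay 354 to 500 kb from it. All 8 lay nearer to Cyria at the other end of the gap.

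The lists for other cell types and for gene deserts gave 1 to 4 genes each. T-cell genes had 1 of 21 (Tox, 5 peaks 863 to 921 kb away and nearer to Car8), myeloid genes 1 of 20 (Tlr4, 1 peak) and erythroid genes 1 of 16. Few of these members had room beside them, 6, 4 and 2, and of those 16.7%, 25% and 50% flanked a far peak. These shares too are above the 10.1% of all genes beside room, and each rests on 1 gene. Neuronal genes, of which 17 of 20 were beside room, had 2, among them Cntn5 with 11 peaks, and regulators known for gene deserts, all 30 beside room, had 4, among them Sox5, Sox9 and Bmp2. As shares of the members beside room the neuronal and gene-desert lists had 11.8% and 13.3%, near the 10.1% of all genes beside room. The plot of the lists sets these shares side by side. The lists were chosen with results of these data known, so the counts are a description, and no list was tested.

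**Figure D3:**
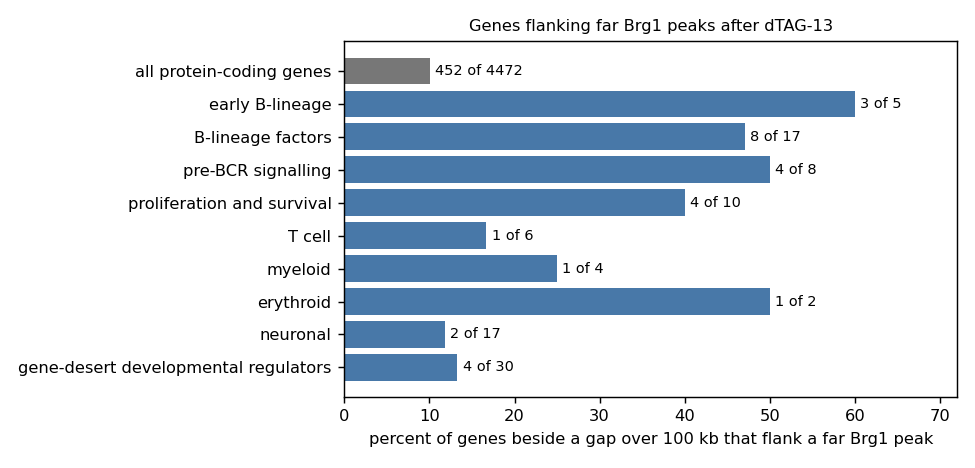
Bars give, for each gene list, the percent of its members beside a gap of over 100 kb that flank a far Brg1 peak after dTAG-13, with the counts at the bar, and the grey bar is all protein-coding genes. Early B-lineage genes stand at 60% (3 of 5), which counts Cr2, whose peak lies beyond the last gene of its chromosome and in no gap. B-lineage factors stand at 47.1% (8 of 17), erythroid genes at 50% (1 of 2), neuronal genes at 11.8% (2 of 17) and all genes at 10.1%.

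Noncoding genes lay under or near a part of the far peaks. Outside receptor loci, 184 of 624 summits (29.5%, 95% interval 25.9 to 33.2%) lay inside or within 5 kb of a noncoding gene, and 134 (21.5%) lay inside one. Over all intergenic Brg1 peaks of the list the share within 5 kb was 28.7%, so the far peaks were near this background. Such positions made up 15% of the room. Summits fell in 82 noncoding genes, of which 81 were lncRNA genes. After Gm31718 (8 summits, beside Irf2bp2), those with the most were Gm36287 (5, beside Id2), Gm13481 (5, between Zeb2 and Acvr2a), Gm33073 (4, beside Mef2c) and Gm39920 (4, between Sema6d and Slc24a5). Gm32543 (between Nmbr and Cited2), Gm12610 (between Cdkn2b and Dmrta1) and Gm33104 (between Olig3 and Ifngr1) also held 4 each. Gm36496, which lies within Gm36287 beside Id2, held 3 with 16 to 25 fragments. The table gives no strand for gene bodies, so peaks at lncRNA ends were read from the promoter windows alone.

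Few far peaks were found in the other lists, and few Brg1 peaks of the library as a whole. The DMSO lists were short, with 234 Brg1 and 312 EBF1 peaks against 5206 here, which limits the share that could overlap. A Brg1 peak of DMSO overlapped 25 of the 733 (3.41%, 95% interval 2.22 to 4.99%), against a background of 2.42% over all Brg1 peaks after dTAG-13. Outside receptor loci it was 21 of 624 (3.37%, 2.1 to 5.1%), against 1.7% (1.25 to 2.26%) of peaks inside genes and 3.14% (2.37 to 4.06%) of intergenic peaks within 50 kb of a gene. Under a reciprocal overlap of 50% it was 0.955% of the 733. An EBF1 peak of DMSO overlapped 11 of the 733 (1.5%, 0.751 to 2.67%), against 1.1% over all, and 9 of 624 (1.44%, 0.662 to 2.72%) outside receptor loci. The EBF1 list after dTAG-13 held only 5 peaks, of which 0 were far from genes, so an overlap with the 733 was hardly possible. None of the 733 overlapped it, as for all peaks (0.0%), and nothing is read from this. EBF1 was mapped in the other line and after a shorter fixation.

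The share found in DMSO rose with the height of the peak after dTAG-13. Of 215 far peaks with up to 16 fragments outside receptor loci, 0 were in the DMSO list (interval 0 to 1.7%). It was 2 of 125 with 17 or 18 fragments (1.6%), 6 of 131 with 19 to 21 (4.58%, 1.7 to 9.7%) and 13 of 153 with 22 or more (8.5%, 4.6 to 14.1%). Other Brg1 peaks gave 0.337%, 1.17%, 2.3% and 7.01% in the same classes, with intervals that overlap those of the far peaks in each class. The lowest local background of a library, which follows its depth, was 2.15 fragments here against 0.607 for DMSO (3.54 times), so absence from the DMSO list and lower depth cannot be told apart.

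**Figure D4:**
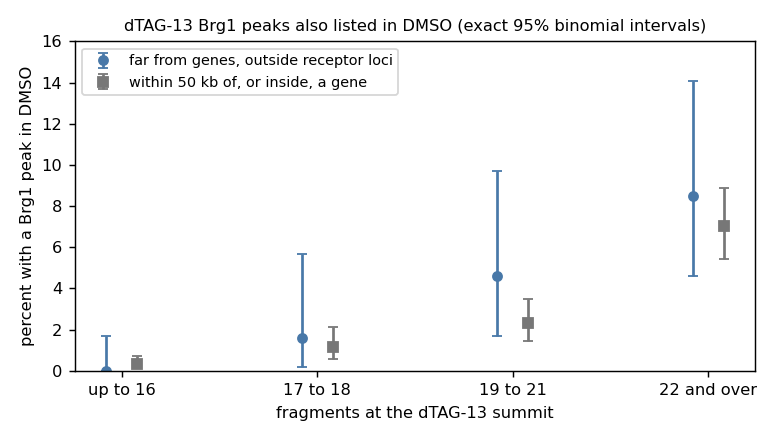
Points give the percent of Brg1 peaks after dTAG-13 that overlap a Brg1 peak in DMSO, by the number of fragments at the dTAG-13 summit, with exact 95% binomial intervals, for far peaks outside receptor loci (blue circles) and all other peaks (grey squares). For far peaks the share goes from 0% with up to 16 fragments to 8.5% with 22 or more.

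Read from the DMSO side, the share of far Brg1 peaks found again depended on whether high-background peaks were counted. The DMSO list had 56 far peaks among 229 placed ones (24.5%, 19 to 30.5%), 49 of them outside receptor loci, and 24 of the 49 were high-background peaks. After dTAG-13, 21 of the 49 were found (42.9%, 28.8 to 57.8%), against 102 of 173 DMSO peaks not far from genes (59%, 51.2 to 66.4%). Without high background, 20 of the 25 far peaks were found (80%, 59.3 to 93.2%). Of DMSO peaks not far from genes and without high background, 101 of 168 were found (60.1%, 52.3 to 67.6%), and the intervals overlap. The EBF1 list of DMSO had 24 far peaks outside receptor loci, and 8 of them overlapped a Brg1 peak after dTAG-13 (33.3%, 15.6 to 55.3%), against 46 of 284 EBF1 peaks elsewhere (16.2%, 12.1 to 21%). These intervals overlap too.

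The far peaks shared with the Brg1 list of DMSO included 4 of the 15 highest, all of them among the first 8. They were the peaks near Kctd12 (45 fragments), Mettl15 (36), Pcdh9 (36) and Kcns2 (34), both Foxo1 peaks named above, a peak 229 kb from Car8 in the gap from Tox, a factor of T-cell development (27), and a peak 96.8 kb from Tmco5 in the gap to Spred1 (31). A peak 53.2 kb from Usp12 (27) and another between Kcna4 and Mettl15 (28) were shared too. Lower ones lay 123 kb from Itga4, the integrin alpha-4 chain (23 fragments), 61.4 kb from Pttg1 near Mir146 (19), 62.6 kb from Rasgrp1 (21) and 177 kb from Bcl6 (19). The EBF1 peaks of DMSO met far Brg1 peaks beside Foxo1, Ppp2r5a (21 fragments, with summits 38 bp apart), Zfp36l1, an RNA-binding protein of early B cells (21, 61 bp apart), and Satb1 (19, 51 bp apart). Others lay 128 kb from Qrsl1 in the gap from Cd24a (21 fragments), 98.1 kb from Tomm20 in the gap from Irf2bp2 (20) and 117 kb from Gsdmc in the gap from Myc (17). The remaining EBF1 peak outside receptor loci, in the gap from Fmo9 to Fam78b, met 2 far Brg1 peaks, of 19 and 14 fragments. Outside receptor loci, the peaks that met both DMSO lists were those beside Foxo1 and Ppp2r5a, and the latter stood at rank 16 of the DMSO Brg1 list and rank 28 of the EBF1 list.

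Antigen receptor loci held 109 of the 733 far peaks (14.9%, 95% interval 12.4 to 17.7%). These loci are assembled by V(D)J recombination in developing B and T cells. Their segments are not counted as protein-coding genes here, which is why the rule took them in. The far peaks there stood at 14.1 per Mb of room, against 0.687 elsewhere, with a median of 18 fragments (quartiles 16 and 21) in both groups. Unlike the room elsewhere, the room in these loci holds gene segments. Outside all room, other peaks of the list stood at 2.69 per Mb. The heavy chain locus Igh held 45, the kappa locus Igk 46, the gamma locus Trg 8, the lambda locus Igl 5 and the joint alpha and delta locus Tra/Trd 5. The beta locus Trb held 0 far peaks, and 2 Brg1 peaks in all. Per Mb of locus span there were 16.3 far peaks in Igh, 14.5 in Igk, 45.9 in Trg, 25.1 in Igl and 2.78 in Tra/Trd.

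In Igh the highest far peak, 31 fragments at chromosome 12, 113427042 to 113428437, lay 1037 bp from Ighj4 and was also a Brg1 peak in DMSO. The intronic heavy chain enhancer is known to lie between the J segments and the first constant region. It stood with 3 others within 1.87 kb, and the other 41 Igh peaks lay among the variable segments, with a cluster of 8 over 98.9 kb (14 to 27 fragments). In Igk the highest had 32 fragments and lay 7580 bp from Igkv12-89, and a cluster of 8 spanned 62.1 kb with 14 to 26 fragments. A peak of that cluster, at chromosome 6, 70040913 to 70041149 (26 fragments), met both an EBF1 and a Brg1 peak of DMSO. The highest in Igl had 35 fragments, 15526 bp from Iglc4, in Trg 31 fragments, 3518 bp from Trgc1, and in Tra/Trd 30 fragments, 557 bp from Trav15-1-dv6-1. The summit lay inside a segment in 6 of 45 cases in Igh and 10 of 46 in Igk. Segments of these families resemble each other, and how reads that map to several places were treated is not given in the sources used here. The plot of the receptor loci shows the Igh and Igk peaks spread over most of the span and the Trg peaks in groups.

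**Figure D5:**
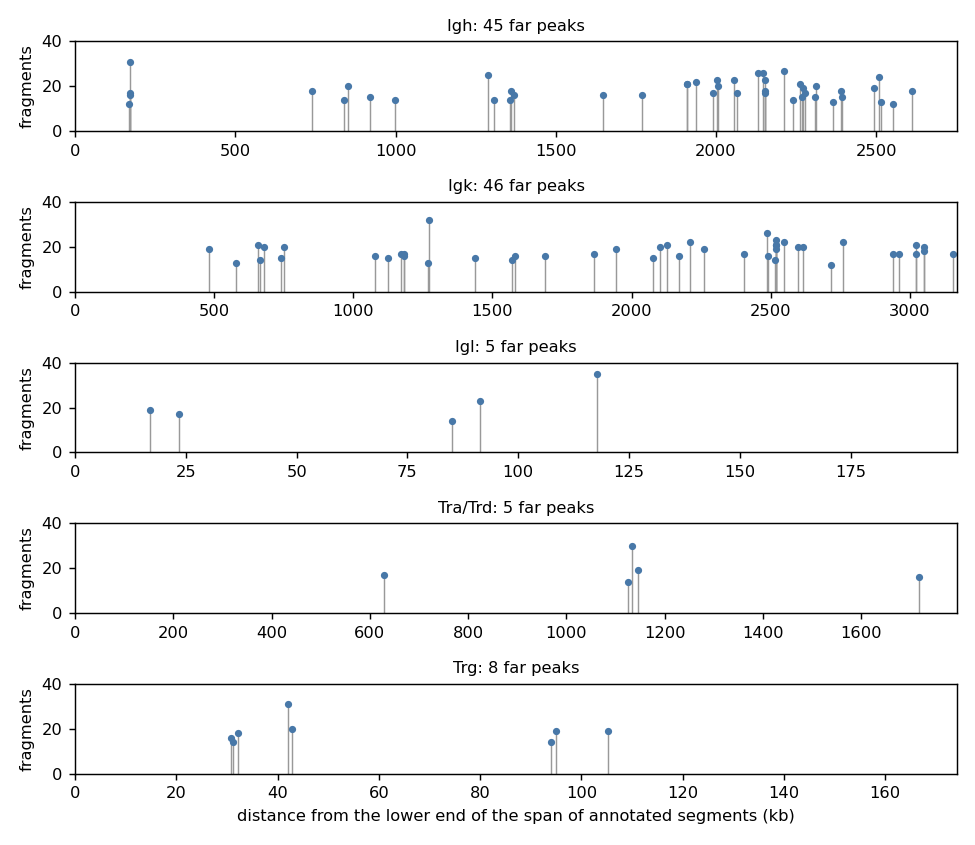
Each panel is an antigen receptor locus, the x axis is the distance in kb from the lower end of the span of its annotated segments, and each stem is a far Brg1 peak after dTAG-13 with its fragments at the summit as height. Igh holds 45 peaks, Igk 46, Igl 5, Tra/Trd 5 and Trg 8.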

How the data were processed

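Brg1 and EBF1 ChIP-seq peak lists of 4 libraries were used, 1 per group, and the inputs were not analysed here. MACS2 2.2.7.1, Bowtie2 2.3.5.1, deepTools 3.3.2 and SAMtools 1.10 are listed with GRCm38 and mm10 in the submitters' processing notes. The sources used here give neither the settings of the peak calling nor its control. Peak names carry 1 library each, so the authors called peaks per library. The deposited fold enrichment is a linear ratio over local background, the deposited p and q values are −log10 values, and the deposited score is 10 times the −log10 q. These values are the authors' and were used within their own list. Library totals are not given, so depth was read from fragments and backgrounds, solved from fold, taken as pileup plus 1 over background plus 1, and a Poisson p. The solution met the deposited −log10 p within 0.000136 for all Brg1 peaks and was tested on simulated data.

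Gene bounds, promoter windows and microRNAs came from RefSeq tables of GRCm38.p6. Genes starting below 3 Mb were left out as lying on other scaffolds. The promoter table held no chromosome 18. The planned motif search at summits needs a genome and was not run, and the search in lncRNA promoter windows was added after the data had been seen. Overlap meant at least 1 bp. Python 3.11.15, pandas 2.3.3 and SciPy 1.17.1 were used. All 212 symbols of the 9 gene lists were found. Members and lists were chosen with earlier results of these data known.

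Named were the 15 highest far peaks by −log10 q, the 5 largest clusters, the 10 gaps with the most far peaks, the 5 densest, the peaks shared with another list (the 15 highest, and others chosen after their values were seen), the 10 leading noncoding genes, microRNA genes within 50 kb, the 5 farthest peaks, list genes beside a far peak and the peaks at the limit of the rule. A few of these are not reported here. Clusters and gaps beyond these were described for list genes.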

Additional observations from a re-analysis of the deposited data

Results flagged for a closer look

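The Brg1 list after dTAG-13 had 5 peaks on chromosome Y, which the comparisons above leave out, and the DMSO list had 0 there.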

How the results depend on the processing

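Of 71 values recomputed under another setting, 44 stayed within 1.5 times (counts) or within the 95% interval (shares) and 27 moved. Leaving out high-background peaks moved none of the values, and taking the whole peak in place of its summit gave 731 far peaks. The 733 far peaks became 454 at a distance of over 100 kb, 259 against all genes other than pseudogenes, and 338 and 70 with −log10 q cutoffs of 5 and 10. The share in receptor loci became 10.9% at over 25 kb, 20.9% at over 100 kb and 7.14% with a −log10 q cutoff of 10. Overlap with Brg1 in DMSO became 5.33% and 14.3% with −log10 q cutoffs of 5 and 10, and 0.955% under a reciprocal overlap of 50%, under which overlap with EBF1 in DMSO became 0.409%. The share in clusters of 3 or more became 38.7% and 61.3% with joining distances of 25 and 100 kb, 27.2% and 0% with −log10 q cutoffs of 5 and 10, and 47.3% without receptor loci. Gaps with a far peak, 237 with receptor loci, became 388 at over 25 kb, 132 at over 100 kb and 59 with a −log10 q cutoff of 10. The share at noncoding genes, 26.2% of the 733, became 18.7% for summits inside and 30.4% within 10 kb, 31.1% and 22% at over 25 and 100 kb, and 18.6% with a −log10 q cutoff of 10. The median of 18 fragments became 21 and 29 with −log10 q cutoffs of 5 and 10, and the 28 list genes became 12 at 10. Stricter cutoffs leave fewer and taller peaks by construction, and the cause of the other changes was not tested.

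Depth limits the comparison with DMSO, whose median summit rested on 13 fragments against 18 after dTAG-13. No paired analysis was possible because each group is 1 library and no result comes from a test.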

Other observations

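Long gaps without any far peak were common. Of 233 gaps with over 1 Mb of room, 181 held no far peak, receptor loci included. The longest was between Pcdh20 and Pcdh9, protocadherin genes, with 4442 kb of room on chromosome 14. The next were between Cntnap5b, a neuronal contactin-associated gene, and Cdh20, a cadherin gene (4178 kb), and between Tenm3, a teneurin gene, and Aga (3889 kb). They were followed by Slc39a10 to Tmeff2 (3875 kb) and Lrrc4c, a synaptic adhesion gene, to Iftap (3829 kb). None of the 10 longest empty gaps held a Brg1 peak of the dTAG-13 list closer to its genes either. These gaps were chosen for their length after the data had been seen, and no test was made.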
